A study of Arabidopsis thaliana with 17 samples.

Results

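The regions described are stretches of the Arabidopsis thaliana genome that carried H3K27me3 in endosperm and in leaf and whose reads, in endosperm, were enriched over H3 on the maternal Col genome and also on the paternal Ler genome. A stretch was called shared when every 150 bp step in it lay in a called H3K27me3 domain in all 4 endosperm libraries and in the leaf library, over at least 1 kb on chromosomes 1 to 5. There were 2561 such stretches, and 1570 of them had at least 15 H3 reads on each parent. Members were chosen by measured values: at least 3.7 H3K27me3 reads per H3 read on Col and at least 1.8 on Ler. This left 298 members, 726300 bp in all, which is 19.0% of the 1570 shared domains with enough reads. The other 991 shared stretches had too few parental reads to be judged.

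The libraries were made by CUT&RUN, in which a nuclease tethered by an antibody cuts out the chromatin bound beneath it. Nuclei of 6N DNA content, a content that marks the triploid endosperm after replication, were sorted from Col × Ler F1 seeds, Col being the seed parent and Ler the pollen parent, at 4 days after pollination with a globular embryo. They were profiled after formaldehyde fixation or without it, with 2 H3K27me3 and 2 H3 libraries per treatment. The leaf sample, nuclei from Col plants 3 weeks old, gave 1 H3K27me3 library. The leaf carries no Ler genome, so it bears on where the mark lies and not on the parent that carries it. The cross was made in 1 direction, so the maternal genome cannot be told apart from the Col genome, nor the paternal from the Ler genome. The parental reads came as 1 table in which the endosperm libraries are pooled, so a parental value has no replicate. Sorted nuclei come from all parts of the endosperm, and reads from any maternal nuclei in the sort would be counted as Col.

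H3K27me3 is set on nucleosomes by Polycomb repressive complex 2 and marks genes that are kept silent, among them developmental regulators that act in another organ or at another stage. The endosperm, the tissue that feeds the embryo, inherits more copies of the maternal than of the paternal genome, and imprinted genes are expressed there mostly from 1 parent. At many paternally expressed imprinted genes, the silent maternal copy is known to carry H3K27me3, while the paternal copy is expressed. A domain with the mark on both copies is the other case. The members are candidates for it, chosen by read ratios.

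Col had more H3K27me3 per H3 read than Ler in the pooled table as a whole, which is why the thresholds differ. Over the nuclear genome the ratio was 1.78 on Col and 0.814 on Ler, and outside every endosperm domain it was 1.24 on Col and 0.697 on Ler. The Col threshold lies 2.08-fold above the genome-wide Col ratio, and the Ler threshold 2.21-fold above the genome-wide Ler ratio. Of the 1570 domains, 73.6% met the Col threshold and 23.2% met the Ler threshold. The Ler threshold was thus the one that few domains passed. The 857 domains that met the Col threshold and not the Ler threshold serve below as the comparison set.

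Summed over all 298 members, the reads were 295647 Col and 24362 Ler for H3K27me3, and 52089 Col and 10462 Ler for H3. The members thus had 5.68 H3K27me3 reads per H3 read on Col (95% counting interval 5.62 to 5.73) and 2.33 on Ler (2.28 to 2.38). The comparison set had 5.56 on Col and 1.10 on Ler, and all 1570 domains had 5.01 on Col and 1.32 on Ler. Against the ratio outside every endosperm domain, the members lay 4.57-fold higher on Col and 3.34-fold higher on Ler. The comparison set lay 4.48-fold higher on Col and 1.59-fold higher on Ler. These values are those the choice was made on and are given as a description. All intervals cover counting error only, and whether a read spanning several bins was counted in each is unknown.

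The gap on Ler had 2 sources, which the read densities separate. Members held 33.5 Ler H3K27me3 reads per kb and the comparison set held 20.5, a ratio of 1.64. Ler H3 was lower, at 14.4 reads per kb in members and 18.6 in the comparison set, a ratio of 0.776. On Col, the densities of both antibodies were close, at 407 and 397 H3K27me3 reads per kb and at 71.7 and 71.4 H3 reads per kb. Col took 83.3% of the H3 reads in members, 79.4% in the comparison set and 81.2% over the nuclear genome. Members therefore combined more Ler H3K27me3 with fewer Ler H3 reads, and the choice by a ratio favours both.

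**Figure D1:**
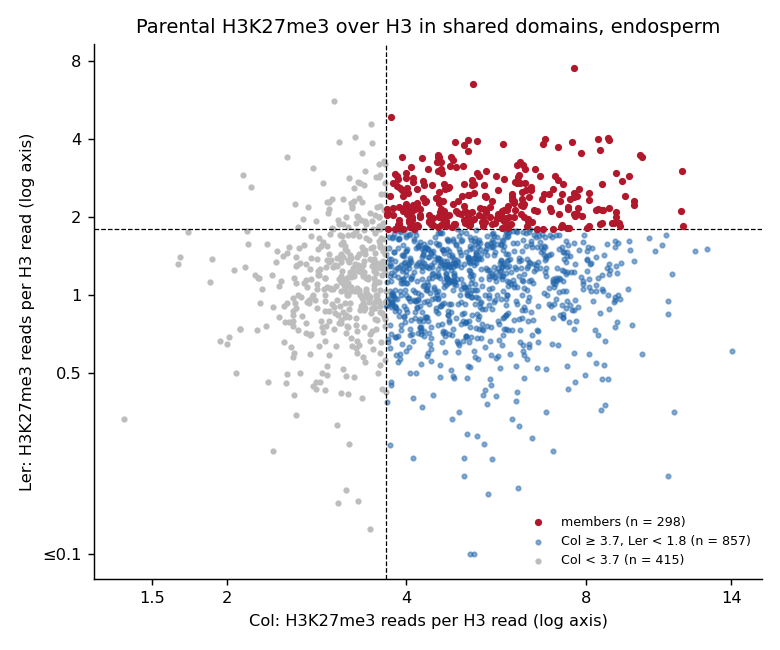
H3K27me3 reads per H3 read on Col (x) and on Ler (y) in the 1570 shared domains with enough reads, on log axes with values under 0.1 drawn at 0.1. Each point is 1 domain and dashed lines are the thresholds; the 298 members fill the upper right corner, which the rule defines, and Ler ratios form 1 continuous cloud across the threshold.

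No gap in the values separates members from the rest, as the plot of Col against Ler ratios shows. The members just inside the Ler threshold were the stretch near GH3.3 and the domain over AT2G25890, with 27 Ler H3K27me3 reads over 15 Ler H3 reads each, and the stretch near AT3G46270, with 81 over 45, a ratio of 1.8 in all of them. Just outside it, at 1.79, lay the domains over AT3G27490 (118 over 66 reads), ABCG19 (59 over 33) and AT4G15690 (52 over 29). On Col, AT2G43600, AT3G17261 and the stretch near CYP79B2 lay just inside at 3.71. The domains over AT1G31090 and near ROPGEF9, at 3.68, and over AT4G17700, at 3.69, lay just outside.

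The parental ratio compares Col with Ler in H3K27me3 and divides by the same comparison in H3, on a log2 scale with 0.5 added to each count. Its median was 1.22 in members (lowest -0.35, highest 2.66), 2.26 in the comparison set and 1.87 in all 1570 domains. Computed from the summed reads, it was 1.29 for members, 2.33 for the comparison set, 1.13 for the nuclear genome and 0.83 outside every endosperm domain. The members as a sum thus lay nearer to the genome as a whole than to the comparison set. A ratio at least 2-fold toward Col with its counting interval above 0 was reached by 206 of 298 members (69.1%), where 87.3% of the 1570 domains reached it. None of the 1570 domains reached it toward Ler. The nuclear genome as a sum, at 1.13, itself lay past 2-fold toward Col. A ratio of 0 was thus not the genome's own level. The counting interval spanned 0 in 44 members (14.8%) and in 109 of the 1570 domains (6.94%). The rule itself lowers this ratio, so these shares describe the members and test nothing.

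Ler reads were few, and the share of domains that qualified depended on how many there were. Members had a median of 29 Ler H3 reads, against 39 in the comparison set and 34 in all 1570 domains. Of the 626 domains with 15 to 29 Ler H3 reads, 152 (24.3%) were members. Members made up 94 of the 518 domains with 30 to 49 reads (18.1%) and 52 of the 426 domains with 50 reads or more (12.2%). The Ler ratios themselves were more widely spread where reads were few, with an SD of 0.843, 0.689 and 0.502 over the same classes. For the members with 50 or more H3 reads per parent, the median ratio on Ler was 2.07 and the median parental log2 ratio 1.46. The Ler ratio's lower counting bound itself lay at or above 1.8 in 64 of the 298 members (21.5%). The upper quartile of this bound was 1.70 in members and 1.13 in all 1570 domains. The count rests on the ratio the choice was made on, so it adds no evidence beyond the choice. It covers counting error only, and differences between parts of a domain were spread 1.81 times as widely on Ler (below).

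Each domain was also divided at its centre, so that a choice made on 1 part could be read in bins it had not used. In 565 domains both parts had enough reads. Of these, 95 met both thresholds in their left part, and 30 of the 95 (31.6%) met them in the right part as well, where 18.2% of all 565 did. Chosen on the right part, 30 of 103 (29.1%) met both in the left part, where 16.8% of all 565 did. The median Ler ratio of domains chosen on the left was 2.14 in the left part and 1.46 in the right part, where all 565 had 1.15. Chosen on the right, it was 2.29 in the right part and 1.53 in the left part, where all 565 had 1.19. In both directions the bins not used for the choice stood above the median of all domains and below the level in the bins used. On Col, the part not used had medians of 5.15 and 5.55, with 4.73 and 4.87 for all 565. The parts are neighbours within the same pooled libraries, so they do not replicate each other. Over the 565 domains, the differences between the 2 parts were spread 1.81 times as widely on Ler as counting error alone would give, and 1.93 times on Col. Counting intervals thus understate the variation within a domain.

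**Figure D2:**
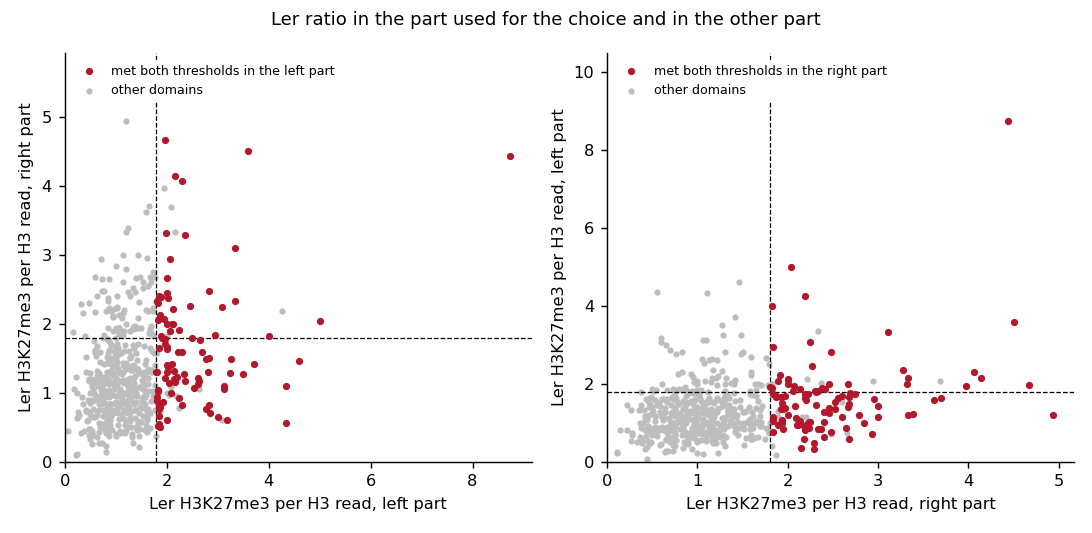
Ler H3K27me3 reads per H3 read in the part of each domain used for the choice (x) and in the other part (y), for the 565 domains with enough reads in both; left panel, chosen on the left part, and right panel, chosen on the right part. Red points met both thresholds in the part on the x axis, dashed lines mark 1.8 on Ler, and 30 of 95 red domains on the left panel and 30 of 103 on the right panel also met both thresholds in the other part.

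Beyond the domain edges, in bins the rule did not use, the Ler ratio of members came down over short distances. It was 2.00 in the last 300 bp inside the edge (1.91 to 2.10), 1.39 in the first 300 bp outside (1.32 to 1.47) and 1.13 in the next 300 bp (1.07 to 1.20). In the comparison set it was 1.07 in the last 300 bp inside, 1.10 in the first 300 bp outside and 0.969 in the next. The members' flanks thus stood above those of the comparison set by less than the domains did, and reads that reach across the edge were not separated. At 2700 to 3000 bp the ratio was 1.19 in members (1.12 to 1.27) and 0.945 in the comparison set (0.909 to 0.983). On Col both sets followed nearly the same course, with 4.00 in members and 4.14 in the comparison set in the first 300 bp outside, and 2.88 and 2.95 at 2700 to 3000 bp. Many flanking bins still lay in a called endosperm domain. In those that lay in none, the Ler ratio in the first 300 bp was 1.17 beside members (0.773 to 1.76, 29 bins) and 0.562 beside the comparison set (0.437 to 0.723, 101 bins). At 300 to 600 bp it was 0.527 beside members (0.413 to 0.673) and 0.622 beside the comparison set (0.538 to 0.719). Members were above the comparison set in 8 of 10 such distance classes, but the counting intervals overlapped in every class except the first. At 900 to 1200 bp, for example, the Ler ratios were 0.722 and 0.720. On Col the ratio at 300 to 600 bp was 2.03 beside members and 2.18 beside the comparison set.

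**Figure D3:**
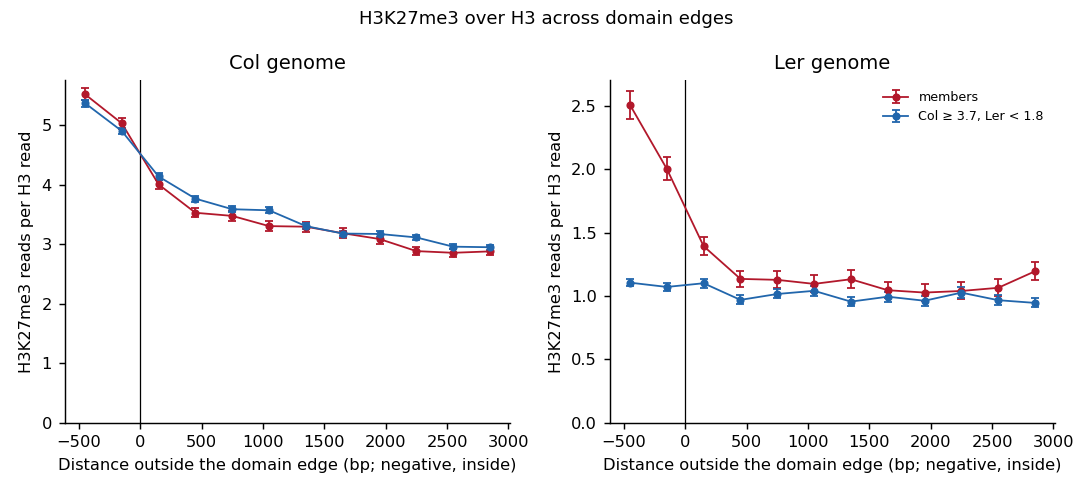
Summed H3K27me3 reads per H3 read by distance from the domain edge in 300 bp classes, on Col (left) and Ler (right), for members (red) and the comparison set (blue); bars are 95% counting intervals. In the last 300 bp inside the edge the Ler ratio is 2.00 in members and 1.07 in the comparison set. Outside, the gap is smaller, with 1.39 and 1.10 in the first 300 bp and 1.19 and 0.945 at 2700 to 3000 bp. On Col the curves nearly coincide throughout.

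The domain calls themselves set members only slightly apart. The members' median width was 2025 bp (1050 to 11100 bp), against 2100 bp in the comparison set and 1875 bp in all 1570 domains. Each library's list gives an enrichment per called domain, used here as a percentile within that list. The called domains that hold the members had a median percentile of 83.2 in fixed replicate 1, 84.2 in fixed replicate 2, 83.4 in unfixed replicate 1, 72.9 in unfixed replicate 2 and 86.8 in leaf. In the comparison set the medians were 79.6, 82.6, 82.1, 71.5 and 83.7 in the same order, and in all 1570 domains 74.3, 76.8, 76.6, 65.1 and 81.6. Members stood highest in every list by the median, by 1.37 to 3.61 points over the comparison set.

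**Figure D4:**
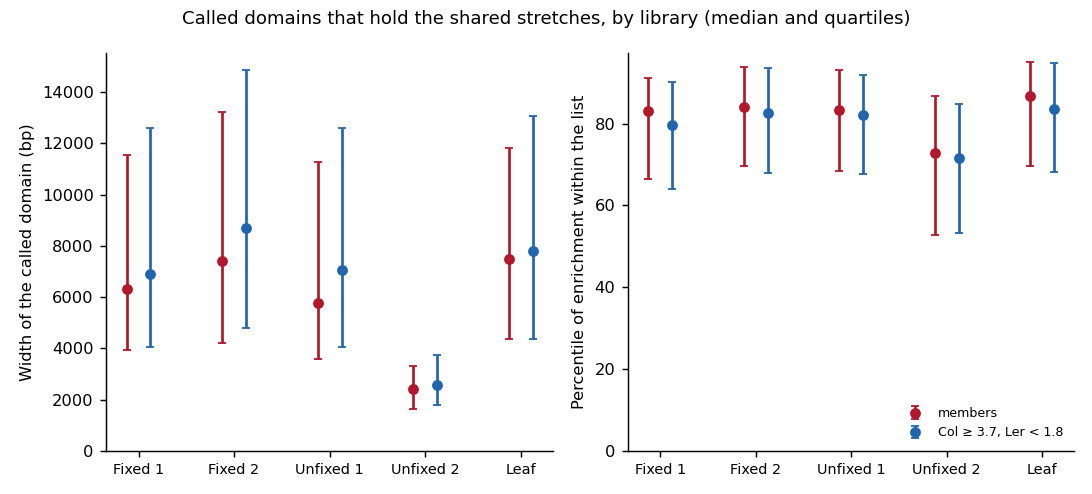
Width of the called domain that holds each shared stretch (left) and its percentile of enrichment within the library's own list (right), in the 2 fixed, 2 unfixed and leaf H3K27me3 libraries; points are medians over domains and bars run over the middle 50% of them, in red for members and blue for the comparison set. The sets overlap over most of their range in all 5 libraries, and unfixed replicate 2 has the narrowest domains in both.

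Most members lay inside a wider called domain. The called domains that meet members had a median width of 6150 and 7200 bp in the fixed libraries, 5550 and 2400 bp in the unfixed libraries and 7050 bp in leaf. They averaged 6675 ± 742 bp in the fixed and 3975 ± 2227 bp in the unfixed pair (SD, n = 2 each). Their difference was 2700 bp (exact permutation p = 0.333, two-sided). That p is the smallest that 2 against 2 libraries allow, so the test could decide nothing. Counted per stretch, the medians were 6300 and 7425 bp fixed and 5775 and 2400 bp unfixed in members. In the comparison set they were 6900 and 8700 bp fixed and 7050 and 2550 bp unfixed, so the narrow last list was not particular to members. The difference in members was 1125 bp without unfixed replicate 2 and 4275 bp without unfixed replicate 1, and unfixed replicate 2 had the narrowest calls. That library also decided which members were found: without it the rule gave 325 members, and 199 of the 298 met one of these. Leaving out any of the other endosperm lists kept 291 to 293 of the 298. Nothing in the labels says that the 2 libraries of a treatment came from separate plants.

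Among the 298 members, 215 (72.1%) held at least 1 protein-coding gene, meaning at least 50% of its body, against 73.4% of the comparison set and 71.4% of all 1570 domains. They held 243 protein-coding genes, with 1 gene in 188 members and at most 3. Of the 83 members without one, 16 held a long noncoding RNA gene, 3 a pseudogene, 2 a miRNA gene, and 62 held no annotated gene body. Long noncoding RNA genes were thus held by 19.3% of members without a protein-coding gene, against 20 of 228 (8.77%) in the comparison set and 45 of 449 (10.0%) in all 1570 domains. Gene-poor windows, 16.4% of the genome, held 5 members (1.68%), 1.75% of the comparison set and 1.59% of all 1570 domains, so members did not stand apart from other shared domains in this. Members were spread over all chromosomes, with 93, 47, 51, 41 and 66 on chromosomes 1 to 5, or 16.1% to 20.2% of the domains with enough reads on each. Within 10 kb of another member lay 75 (25.2%) of them. Neighbouring domains with enough reads and within 10 kb were counted separately. Beside a member, 62 of 248 were members (25.0%), and beside a non-member 186 of 1046 were (17.8%). These counts do not cover every pair within 10 kb, so they cannot be set against the 75. The window with the most members was chr1:24500001-25000000, with 9 members among 32 domains with enough reads. No base sequence was used, so motifs and base composition in the members were not analysed here.

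The members that hold developmental regulators are described first. From 12 lists of flower, meristem, root, seed and imprinted genes (181 distinct genes), 43 genes were held by a domain with enough reads and 10 of these by a member. That is 23.3% of the 43, beside 19.0% of all domains with enough reads, and the members' lists hold 0 to 3 genes each. The member genes were FUL, CUC2, BOP1, WOX1, PLT1, RSL2, ABI4, CRA1, CRU3 and PHE1. Members held no gene of the flowering-time, seed coat or auxin lists, of which domains with enough reads held 5, 2 and 5, too few to read anything from at a background of 19.0%. Of these, FLC had a Ler ratio of 1.24, FT 1.47, TT16 1.36 and TAA1 1.33, all under the threshold, with Col ratios of 8.77, 7.44, 5.76 and 4.58. STM, a homeobox gene that maintains the shoot meristem, had a Ler ratio of 0.745 (108 over 145 reads) and a Col ratio of 4.22.

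Among regulators of organ boundaries and leaf shape, CUC2, a NAC factor that sets organ boundaries, lay in a member of 5400 bp (chr5:21899401-21904800). Its called domain measured 15300 and 13350 bp in the fixed, 5700 and 5400 bp in the unfixed and 11100 bp in the leaf library. It stood at percentile 87.6, 93.9, 98.5, 90.0 and 99.4 of the same lists, so high in each of them. The domain held 3641 Col and 179 Ler H3K27me3 reads and 505 Col and 87 Ler H3 reads, which gives 7.21 on Col (6.56 to 7.91) and 2.06 on Ler (1.59 to 2.65). Over the CUC2 body alone, the Ler ratio was 2.60 (143 over 55 reads). BOP1, which acts with its paralog BOP2 at leaf and floral organ bases, had 60 Ler H3K27me3 reads over 29 Ler H3 reads, a ratio of 2.07 (1.32 to 3.18). BOP2 itself, in a shared domain of 9300 bp, had 116 over 75, a ratio of 1.55 (1.16 to 2.06), below the threshold. The intervals of the 2 paralogs overlap, so their different class is not a measured difference.

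WOX1, a homeobox gene of the leaf margin, lay in the member domain with the highest Ler ratio of the listed regulators after RSL2. Its 6000 bp member (chr3:6158551-6164550) lay in called domains of 11100 and 11550 bp in fixed, 8700 and 6000 bp in unfixed and 7800 bp in leaf nuclei, at percentile 87.6, 97.5, 95.3, 88.4 and 67.0. Leaf was the list in which it ranked lowest. With 2402 Col and 186 Ler H3K27me3 reads over 255 Col and 65 Ler H3 reads, the ratios were 9.42 on Col (8.27 to 10.7) and 2.86 on Ler (2.15 to 3.77). The Ler reads were uneven: 171 over 52 reads in the right part and 15 over 13 in the left, or 3.29 and 1.15. The WOX1 body lay where they were dense, with 143 over 38 reads, a ratio of 3.76 (2.61 to 5.32). FUL (AGL8 in the annotation), a MADS-box gene of fruit and flowering, stood at percentile 97.6 and 99.5 in the fixed, 98.2 and 86.8 in the unfixed and 93.5 in the leaf list. It rested on 40 over 18 Ler reads, all of them in the left part of the domain, a ratio of 2.22 (1.26 to 3.79), and its Col ratio was 9.63.

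Of the root regulators, RSL2, a bHLH factor for root hairs, had the highest Ler ratio among the member domains of listed genes. Its member (chr4:16239451-16242750) lay in called domains of 5850 and 9900 bp in fixed, 6900 and 3300 bp in unfixed and 10500 bp in leaf nuclei. There were 1762 Col and 149 Ler H3K27me3 reads over 284 Col and 46 Ler H3 reads, or 6.20 on Col (5.47 to 7.02) and 3.24 on Ler (2.31 to 4.47). Both parts of the domain showed it, with 3.33 on the left and 3.11 on the right. Its relative RHD6, which acts earlier in root hairs, had a Ler ratio of 1.21 (51 over 42 reads) and was no member. PLT1, an AP2-type factor of the root stem cell niche, had 74 over 34 Ler reads, a ratio of 2.18 (1.44 to 3.23) that was 2.13 on the left and 2.21 on the right.

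Among seed genes, CRA1, which encodes a cruciferin storage protein, had 948 Col and 155 Ler H3K27me3 reads over 132 Col and 56 Ler H3 reads. This gives 7.18 on Col (5.97 to 8.59) and 2.77 on Ler (2.03 to 3.73), with 2.35 in the left and 3.28 in the right part. Its called domain ranked unevenly, at percentile 49.1 and 97.0 in fixed, 90.7 and 85.8 in unfixed and 96.3 in leaf nuclei. The member over CRU3, another cruciferin gene, says nothing on CRU3 itself, because no bin of the CRU3 body held a parental read of either antibody. Only 16 of the 44 bins of that domain held any. The neighbouring gene NAC074 had 75 over 18 Ler reads, a ratio of 4.17 (2.45 to 6.79), over its own body. That body runs past the edge of the member, so its reads are not a part of the member's. The whole member had 65 over 32 Ler reads, a ratio of 2.03. ABI4, an AP2-type factor of abscisic acid signalling in seeds, had 60 over 33 Ler reads, a ratio of 1.82 (1.18 to 2.75), with 4.75 in the left part and 0.88 in the right. Its place just above the threshold thus averaged unlike parts. Over the ABI4 body alone the ratio was 4.67 (2.21 to 9.04), on 42 over 9 Ler reads. ABI3 and FUS3, regulators of seed maturation, had Ler ratios of 1.70 and 0.659 and were no members.

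**Figure D5:**
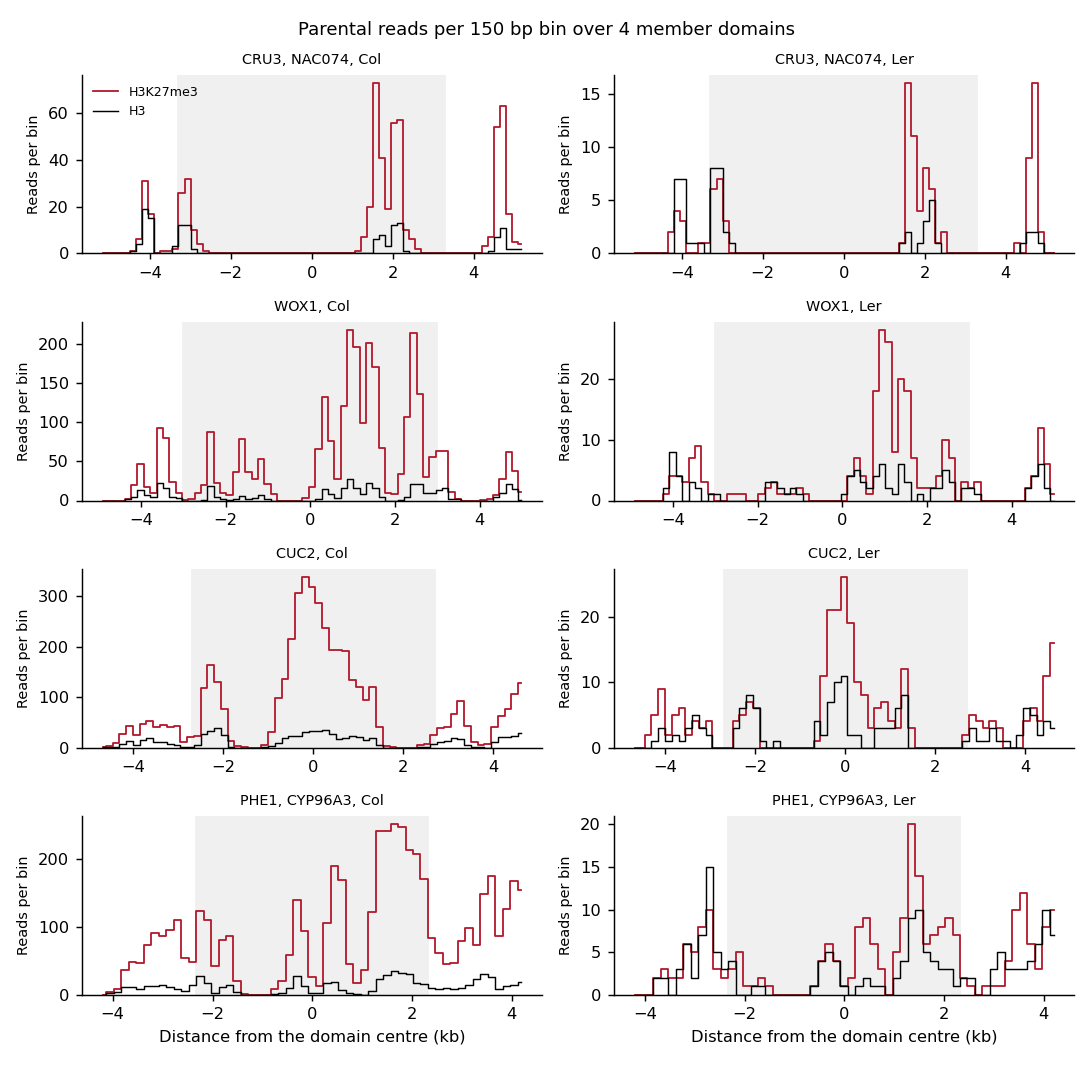
Reads per 150 bp bin on Col (left) and Ler (right), H3K27me3 in red and H3 in black, over the 4 widest members that hold a listed gene, by distance from the domain centre; grey marks the member, and the y axes differ between panels. Reads come in separate blocks with empty stretches between them, most of all in the CRU3 and NAC074 domain, and the Ler H3K27me3 peaks lie where Col peaks too.

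Parental reads covered the members in blocks, as the profiles of reads per bin show. Of the 4842 bins in members, 91.0% held at least 1 parental read and 78.1% at least 1 Ler read, against 89.5% and 74.5% in the comparison set. A domain's ratio is thus that of the bins in which the 2 genomes could be told apart.

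Of 12 matched paternally expressed imprinted genes, 7 were held by a domain with enough reads and 1 of these, PHE1, by a member, a count too small to set against the 19.0% of all domains. The other 6 had Ler ratios between 0.391 and 1.35, with VIM5 at 0.589 (132 over 224 reads) and SUVH7 at 0.75 (60 over 80 reads), and Col ratios of 6.30 and 5.55. PHE1, a type I MADS-box gene of the endosperm, shares its 4650 bp member (chr1:24265351-24270000) with the cytochrome P450 gene CYP96A3. The member had 3087 Col and 142 Ler H3K27me3 reads over 372 Col and 67 Ler H3 reads, or 8.30 on Col (7.44 to 9.23) and 2.12 on Ler (1.58 to 2.82). The PHE1 body held 5 Ler reads of each antibody, a ratio of 1.00 (0.307 to 3.26), and CYP96A3 held 78 over 39, a ratio of 2.00 (1.36 to 2.91). Most of the member's Ler reads thus lay beside PHE1, and at this depth no enrichment on Ler was detectable in the PHE1 body. PHE1 has a near-identical neighbour, PHE2, so reads of the 2 may be mixed. No maternally expressed imprinted gene of 11 and none of 8 genes for Polycomb complex subunits lay in any shared stretch, so none could be a member.

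Outside the lists, the highest Ler ratios by their lower counting bound were found over AT1G06360, AT1G14580 and VSP2. AT1G06360 (chr1:1938751-1941750) had 224 Ler H3K27me3 reads over 30 Ler H3 reads, a ratio of 7.47 (5.04 to 10.7), and 1359 over 178 reads on Col, a ratio of 7.63. Its parental log2 ratio was 0.05 ± 0.30 (counting SE), an interval that includes 0, where the nuclear genome as a sum had 1.13. It ranked at percentile 96.2 and 98.2 in fixed, 91.7 and 80.5 in unfixed and 81.0 in leaf nuclei. AT1G14580 had 202 over 31 Ler reads, a ratio of 6.52 (4.42 to 9.36), and a Col ratio of 5.17. Both parts of each domain exceeded the threshold on Ler, with 11.9 and 4.50 in AT1G06360 and 8.73 and 4.44 in AT1G14580.

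VSP2, which encodes a vegetative storage protein of leaves and flowers, had 146 over 30 Ler reads, a ratio of 4.87 (3.25 to 7.09), and 952 over 253 on Col, a ratio of 3.76. The parental log2 ratio was -0.35 ± 0.30 for VSP2 and -0.32 ± 0.32 for AT1G14580 (counting SE), and both intervals include 0. These were the only 2 of 298 members below 0 (0.67%), where 13 of the 1570 domains were (0.83%), so members did not stand apart in this. VSP1, the tandem paralog of VSP2, lay in another member (chr5:8507551-8510250), with 152 over 66 Ler reads, a ratio of 2.30 (1.72 to 3.06). The genes are near copies, and reads could be divided between them. The other members in this set were AT3G46280, AT5G50830, AT5G56960, RSL2, the cytochrome P450 gene CYP706A3, the sugar transporter gene SWEET10 and ASG8, with Ler ratios between 3.00 and 4.02 on 19 to 87 Ler H3 reads.

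The widest members were those over SRS5 at 11100 bp and STY1 at 8700 bp, both SHI-family regulators of auxin synthesis and carpel development. STY1 (chr3:18958651-18967350) lay in called domains of 14850 and 11550 bp in fixed, 11700 and 8700 bp in unfixed and 11550 bp in leaf nuclei. It had 280 over 105 Ler reads, a ratio of 2.67 (2.13 to 3.33), with 3.26 in the left part and 1.49 in the right, and a Col ratio of 7.32. SRS5 had 133 over 73, a ratio of 1.82 (1.37 to 2.41), with 2.15 and 1.20 in its parts. AS2, a regulator of leaf polarity, had a member of 7200 bp with 93 over 47 Ler reads, a ratio of 1.98 (1.39 to 2.79). In STY1 and SRS5 the right part alone would not have met the Ler threshold.

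The remaining wide members held metabolic genes or genes without a symbol. IMS2, at 8100 bp, had 194 over 72 Ler reads, a ratio of 2.69 (2.05 to 3.51). The member with BZO1 and AAE12, acyl-activating enzymes of which BZO1 acts in glucosinolate synthesis, had 166 over 67, a ratio of 2.48. AT2G23230, the metallothionein gene AtMT4b and the glycosyltransferase gene UGT84B2 shared a member with 254 over 104 Ler reads, a ratio of 2.44, but 2.86 in the left part and 0.70 in the right. AT1G65850, AT1G66780 and the member with AT1G66020 and CYP96A14P had ratios of 1.81, 2.05 and 2.17.

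Among the 52 members with at least 50 H3 reads on each parent, the parental log2 ratio was lowest for the member with AT3G49950 and AT3G49960, at 0.82 ± 0.18 (counting SE, as for the ratios that follow). AT5G56960 had 0.86 ± 0.19, VSP1 0.91 ± 0.23, the amino acid transporter gene UMAMIT36 0.94 ± 0.16 and AT2G23900 1.04 ± 0.27. UMAMIT36 had the most Ler reads of any member, 310 H3K27me3 reads over 132 H3 reads, or 2.35 (1.91 to 2.87), and its parts had 2.45 and 2.26. The ratio was highest for AT3G29800, at 2.31 ± 0.25, followed by the stretch near MYB79 at 2.14 ± 0.25, AT1G65850 at 2.04 ± 0.18, MAM1, a glucosinolate chain-elongation gene, at 2.01 ± 0.23, and AT1G29000 at 2.00 ± 0.26. The MAM genes are known to differ in gene content between accessions, and IMS2 and MAM1 are paralogs. All 10 of these ratios were positive, but the nuclear genome as a sum had 1.13. The lowest ratios, 0.82 to 1.04, lay below that level, and the highest, 2.00 to 2.31, lay above it. Whether a single domain differed from that level was not tested.

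By family, the largest group among the 243 genes was that of the cytochrome P450 genes, oxygenases of specialised metabolism, with 11 genes (4.53%). They made up 2.76% of the genes in the comparison set, 2.91% of those in all 1570 domains and 0.845% of all nuclear protein-coding genes. Among the 11 were CYP96A3, CYP96A14P, CYP96A15, CYP71B21, CYP71B22, CYP79C2, CYP81F3 and CYP706A3. Transcription factors of the families that could be recognised by name made up 16 genes (6.58%), against 6.96% in the comparison set, 6.28% in all 1570 domains and 2.58% of all genes. They included WRKY31, WRKY56 and WRKY57, the MYB genes MYB34, MYB36, MYB90 and MYB105, the NAC genes VND1, NAC074 and CUC2, and TCP17. Members thus resembled the other shared domains in their share of transcription factor genes. Family names came from symbols and synonyms, which leave many genes unplaced.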

How the data were processed

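Per library with H3K27me3 (4 endosperm, 1 leaf) the authors deposited the called broad domains, and for the endosperm 1 table of whole-number counts of parent-assigned reads in 150 bp bins. A p-value or q-value deposited with each domain was not used further. The deposited enrichment of a domain is on a log scale, treated as log2 although its base is not stated, and was used only as percentiles within a list. Per the submitters' processing notes, the build was TAIR10 and the tools were SICER, deepTools 2.0, Bowtie2, Picard and Trim Galore, with no step named. Neither the rule that assigns a read to a parent nor the set of libraries in each column, among the 8 endosperm libraries listed with the table, is stated there. Depth per library is unknown from the files. Nuclear H3K27me3 reads numbered 11018316 on Col and 1170723 on Ler, and nuclear H3 reads 6201154 on Col and 1437423 on Ler. The IgG, seed coat and embryo samples of the 17 were not analysed here.

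Bins were assigned to a domain by their midpoint. Intervals of ratios are 95% log-normal counting intervals with 0.5 added to each count, tested on simulated counts. Ratios were not tested, since the pooled columns hold no replicates and the members were chosen on them. Fixed and unfixed lists were compared by a two-sided exact permutation test over libraries. Positions are TAIR10, from 1. The annotation was TAIR10.1, taken to share these coordinates: 117 of 181 listed genes were marked in leaf in place, and 44 and 34 when moved by 50000 bp either way. A gene was held when at least 50% of its body lay in a domain. Gene-poor windows of 500 kb are those with under 50% of the median number of genes.

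Named domains were the 10 members with the highest lower bound on Ler, the 10 widest, those holding a listed gene, the 5 lowest and 5 highest parental ratios with at least 50 H3 reads per parent, and the 3 on either side of each threshold. In the family counts, P450, transcription factor and other names are those met in symbols and synonyms. The AP2/ERF pattern was left out because it met clone names, and AGL36 and MYB3R2 were taken out of the paternally expressed list, to which they do not belong; both changes were made after seeing the data. The members and lists were chosen with earlier results of these data known. Alternatives were other lists, stretch widths, read minimums, thresholds, bin rules and enrichment cut-offs. Python 3.11.15, numpy 2.4.6, pandas 2.3.3 and scipy 1.17.1 were used.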

Additional observations from a re-analysis of the deposited data

How the results depend on the processing

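The number of members, 298, was 149 with a minimum stretch of 2 kb, 52 with at least 50 H3 reads per parent and 188 with thresholds of 2.0 on Ler and 4.1 on Col. The percentage of members that hold a protein-coding gene was 87.2 and 86.5 under the first and second of these. With thresholds of 1.6 and 3.3 there were 429 members, without the leaf list 311, with bins wholly inside 292, and with the upper 75% of each list 276. Leaving out 1 endosperm list at a time gave 298 to 325 members, a median Ler ratio of 2.17 to 2.21, a median parental log2 ratio of 1.10 to 1.22, a median width of 2100 to 2700 bp and 71.0% to 73.2% with a gene. Without unfixed replicate 2 the median width was 2700 bp. Choosing on the right part gave 29.1% in place of 31.6%. The fixed minus unfixed width ran from 1125 to 4275 bp when 1 list was left out. In the paired analysis with a replicate block it was 2700 bp (exact p = 0.5, the smallest that 2 pairs allow). Whether the numbers pair the libraries is not stated in the labels. Planned motif counts in promoters were not run, since no sequence was used. Parental depth limits all of this: 152 of 298 members had under 30 Ler H3 reads, and the pooled columns give no spread between libraries.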
